A study of Mus musculus with 65 samples.

Results

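Bone morphogenetic protein (BMP) signalling was followed through 10 genes in mouse neural progenitors made from embryonic stem cells: the secreted antagonists follistatin (Fst), noggin (Nog) and chordin (Chrd), the ligands Bmp4 and Bmp7, the pseudoreceptor gene Bambi, the intracellular inhibitors Smad6 and Smad7, and the target genes Msx1 and Msx2. The members are defined by name rather than by a threshold on their values, and are 10 of the 25239 genes in the deposited expression table. The 65 RNA-seq libraries came from the HM1 embryonic stem cell line. 3 libraries labelled NMP (neuromesodermal progenitor, the bipotent cell that forms both spinal cord and paraxial mesoderm) were taken on day 3, before SAG was given. At 3 later stages (days 4, 5 and 6), fixed cells stained for transcription factors were sorted into SOX2-positive p3 (NKX2.2-positive and OLIG2-negative), pMN (OLIG2-positive), p2 (NKX6.1- and PAX6-positive) and p0-1 (PAX6-positive and NKX6.1-negative) progenitors, which run from ventral to dorsal. SAG, a Smoothened agonist that activates Hedgehog signalling, was given from day 3, and p0-1 cells were taken at 0 and 10 nM, p2 at 10 and 100 nM, and pMN and p3 at 100 and 500 nM. This gave 8 groups a day, 25 groups in all, and 1 to 3 libraries a group: 16 libraries on day 4, 24 on day 5 and 22 on day 6.

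Every group had the same earlier culture. Cells received bFGF and the Wnt secretion inhibitor LGK until day 2. From day 2 to day 3 they received bFGF, the Wnt pathway activator CHIR99021, the TGF-beta and Activin receptor inhibitor SB-431542 and the BMP type I receptor inhibitor DMH1. From day 3 they were kept in retinoic acid with or without SAG. The day 3 libraries were therefore taken at the end of the DMH1 period, and the later ones after its withdrawal. All libraries came from 1 cell line, and the submitters describe replicates as independent differentiations.

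BMPs are secreted ligands that bind pairs of type I and type II serine/threonine kinase receptors, which phosphorylate SMAD1, SMAD5 and SMAD9 so that they enter the nucleus with SMAD4. Noggin and chordin bind BMP ligands outside the cell, and follistatin binds activins most tightly and some BMPs. Smad6, Smad7 and Bambi are themselves BMP targets and dampen the response. In the neural tube, BMPs from the roof plate and overlying ectoderm pattern the dorsal side, Msx1 and Msx2 mark the dorsal response, and noggin, chordin and follistatin come from the notochord, somites and other midline or paraxial tissues.

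Values are reads divided by 1 size factor per library, called normalised reads below, and 1 read was worth 0.717 to 1.359 of them. Libraries held 7615114 to 13484815 reads in genes and detected 9718 to 15963 genes. The sorting factors followed their labels in RNA on days 5 and 6: Nkx2-2 was above 0 in 11 of 11 p3 libraries and in 0 of 12 p0-1 libraries, and the median of Olig2 was 3295 in pMN. Olig2 RNA was still present in p3, at a median of 769, although the sort was on low OLIG2 protein. The day 3 libraries held T (Brachyury) at 909 to 3749 normalised reads, and T was at 0 in all libraries of days 5 and 6 but 1, a p3 library of day 6 at 262. The summed level of 7 fibroblast markers, the cell type of the feeders, lay at 39.4 to 332 on day 3 and 0 to 779 later, with Postn at 0 throughout.

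Msx1 averaged under 10 normalised reads and was not tested, so 9 of the 10 members were among the 13964 genes tested. Across 15 comparisons and 9 members, 2 of 135 tests (1.48%) were called, both of them Fst, beside 1.18% of the 209460 tests of all genes, where a call in limma needs more than a 2-fold change with a Benjamini-Hochberg adjusted p under 0.01. The other members varied widely among replicates. Over all 65 libraries Bmp7 averaged 383 normalised reads, and the rest were lower, with means of 108 or less. Bmp7 was above 0 in 63 of 65 libraries and Smad6 in 59, whereas Smad7 was at 0 in 15, Nog in 20, Chrd in 21, Bambi in 23, Bmp4 and Fst in 43 each, Msx2 in 48 and Msx1 in 54. The number of members detected in a library was 9 to 10 on day 3, 4 to 9 on day 4, 1 to 8 on day 5 and 3 to 9 on day 6. The median number of all genes detected also fell, from 15429 on day 3 to 13174, 12707 and 12674 on days 4, 5 and 6. The part of detection in the member values of each day was not tested.

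**Figure D1:**
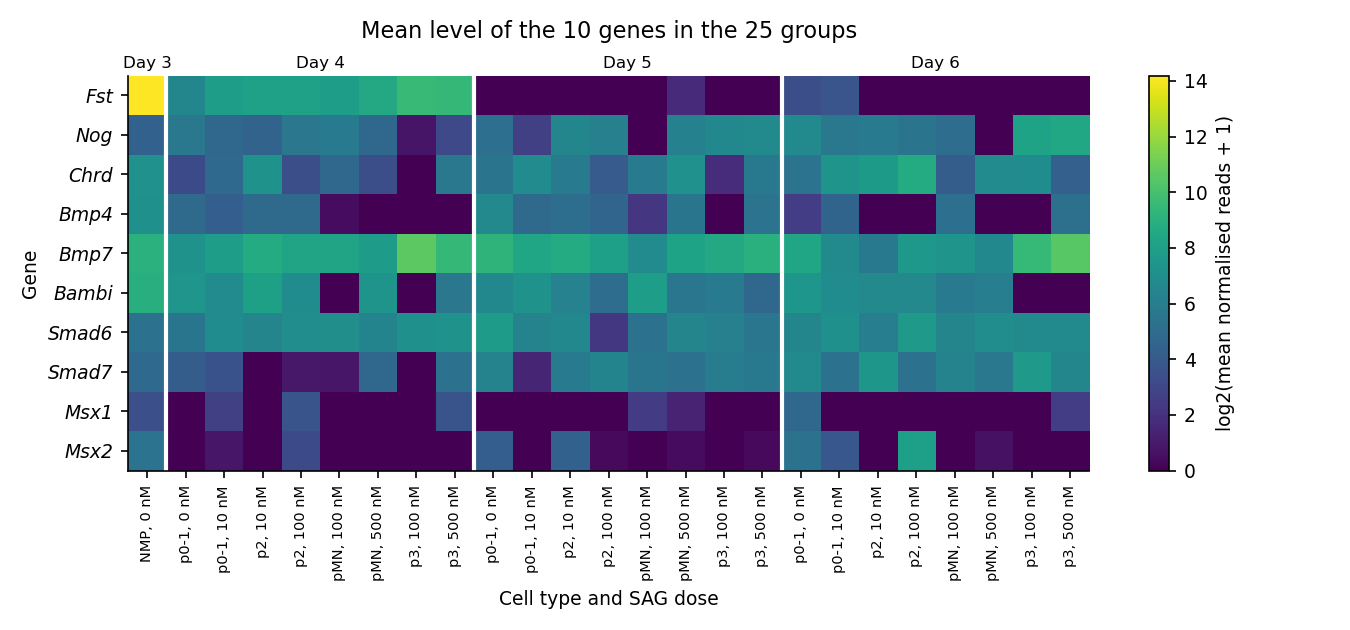
Mean level of each of the 10 genes (rows) in each of the 25 groups (columns, by day, cell type and SAG dose), as log2 of the mean normalised reads plus 1. Fst is brightest on day 3 and at or near 0 from day 5, Bmp7 is present in most groups, and Bambi is at 0 in both p3 groups of day 6.

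Per kilobase of exon, which allows genes to be compared, Fst stood far above the other members on day 3, at a mean level of 6497 ± 3073 normalised reads per kb (SD, n = 3). Bmp7 followed at 144 ± 125 per kb, Bambi at 94.6 ± 17.6, Bmp4 at 67.6 ± 10.4 and Chrd at 41.6 ± 12.2. Msx2 at 19.2 ± 25.6, Smad6 at 12.7 ± 9.32, Nog at 10.5 ± 9.68, Smad7 at 6.31 ± 4.46 and Msx1 at 5.22 ± 4.95 closed the order, and these 5 neighbours differed by less than their spread, as did Bmp7 and Bambi. By day 6 the order had another head: Bmp7 stood at 96.6 ± 158 per kb (n = 22), Nog at 57.6 ± 73.9 and Chrd at 41.6 ± 81.6, with overlapping spreads, while Fst was at 1.04 ± 3.40.

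Fst, which encodes follistatin (mm10, chr13:114452262-114458951, minus strand), was among the most abundant transcripts of the NMP libraries. It reached 10586, 27999.9 and 17179 normalised reads in replicates 1, 2 and 3, and its mean ranked 16 of 25239 genes. On day 4, 1 day after the change to retinoic acid, it lay between 25.6 and 1096 with a median of 294 in the 16 libraries, all far below the lowest NMP library. The change from day 3 to day 4 was −5.97 on the log2(value + 1) scale (SE 0.89, adjusted p = 2.5e-06, limma), with 16 of 16 day 4 libraries below all 3 NMP libraries. On day 5 Fst was at 0 in 23 of 24 libraries and at 7.01 in pMN at 500 nM replicate 3. The change from day 4 to day 5 was −7.98 (SE 0.47, adjusted p = 8.48e-18), and the libraries of the 2 days did not overlap. In reads, the 3 libraries of day 3 held 50332 Fst reads, the 16 of day 4 held 6593, the 24 of day 5 held 8 and the 22 of day 6 held 77.

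Set beside all genes, 3.49% of those tested were called between days 3 and 4, 2.18% were called lower on day 4 and 4.37% had all day 4 libraries below all day 3 libraries. From day 4 to day 5, 4.3% were called, 1.2% were called lower and 0.043% did not overlap in that direction, a set of 6 genes that includes Fst. The day 4 libraries serve in both comparisons, so the steps are not independent. In DESeq2 on the recovered reads, the step from day 3 to day 4 had nearly the same size, −5.91, with an adjusted p of 0.130, and so lost its call, whereas edgeR gave −5.85 with an adjusted p of 5.42e-05. In bulk libraries fewer cells of a type and less RNA per cell cannot be told apart, for this gene or any below.

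**Figure D2:**
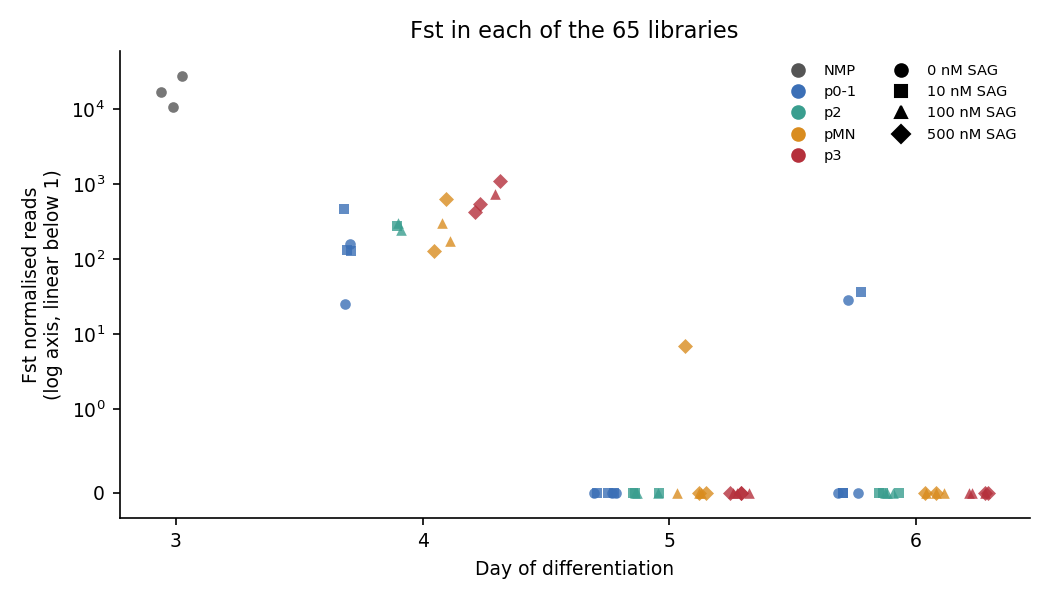
Fst normalised reads (log axis, linear below 1) in each of the 65 libraries by day of differentiation, coloured by cell type with the marker shape giving the SAG dose. The 3 NMP libraries lie at 10586 and above, the 16 day 4 libraries between 25.6 and 1096, and 43 of the 46 later libraries at 0.

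Within day 4, p3 cells held the most Fst. The 4 p3 libraries gave 749.9 at 100 nM and 549.8, 1096 and 430.3 at 500 nM, the 4 pMN libraries 128 to 637, the 3 p2 libraries 249 to 307 and the 5 p0-1 libraries 25.6 to 466. The p3 range thus overlapped those of pMN and p0-1 at its lower end and lay above that of p2. The 1 p3 library at 100 nM detected 9718 genes, the fewest of the 65 libraries. Ventral (p3 and pMN) against dorsal (p2 and p0-1) libraries of day 4 differed by 1.24 on the log2 scale (SE 0.76, adjusted p = 0.411), which did not pass the test. From this level, p3 cells went to 0 in all 6 libraries of day 5, at least 281-fold below their day 4 mean when 0 is read as 3 reads per library. The corresponding bounds were 95.2-fold in p2 and 60.7-fold in p0-1, the last of which is 37.0-fold without p0-1 at 10 nM on day 4, replicate 1. No bound was taken for pMN, where 1 library of day 5 held 8 reads. On day 6 the 2 libraries above 0 were both p0-1, at 28.4 (0 nM replicate 3) and 37.1 (10 nM replicate 1), and the 16 p2, pMN and p3 libraries were at 0.

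Markers of the NMP state fell over the same day as Fst. The summed level of 9 NMP and presomitic markers was 3405 to 7150 on day 3 and 0 to 551 on day 4, and 6 of its 7 tested genes (T, Cdx1, Cdx2, Nkx1-2, Fgf8 and Wnt3a) were called lower. Of the mesoderm genes, Msgn1 was at 0 on all days, and Tbx6 was at 4.08 to 48.8 on day 3. The sum of 8 somite and paraxial mesoderm genes was 50.6 to 225 on day 3, where Meox1, Meox2, Foxc2 and Pax1 were at 0 and Foxc1 was highest, and 54.6 to 353 on day 4, and 0 of its 4 tested genes were called. The sum of 5 embryonic stem cell markers was 814 to 1579 on day 3 and 1.46 to 165 on day 4, and that of 6 neural progenitor markers was 1525 to 2093 and then 5668 to 16800. The part of cell state and that of the medium change in the fall of Fst cannot be told apart, since every group changed medium on day 3.

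Nog and Chrd encode antagonists that bind BMP2, BMP4 and their relatives directly. Nog (chr11:89300638-89302559, minus strand) was low on day 3, at 0, 23.6 and 36.7 normalised reads, and lay between 0 and 110 on day 4. The p3 cells of day 6 held 125, 312 and 451 with 100 nM SAG and 186 and 508 with 500 nM, and 3 of these values are the highest of the series. The other 17 libraries of that day lay between 0 and 142, so that 4 of the 5 p3 libraries stood above all of them and 1 stood inside their range. On day 5 the 6 p3 libraries lay between 0 and 225 and overlapped the others, which lay between 0 and 162.

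Over days 5 and 6 together, Nog averaged 199 ± 168 in p3 (n = 11), 64.8 ± 60.5 in p2 (n = 12), 48.7 ± 54.9 in p0-1 (n = 12) and 29.2 ± 44.3 in pMN (n = 11). On the log2 scale p3 exceeded pMN by 3.74 (SE 1.24, adjusted p = 0.150), p0-1 by 2.75 (SE 1.21, adjusted p = 0.236) and p2 by 2.40 (SE 1.21, adjusted p = 0.294). None of these differences passed the test. Floor plate and notochord markers moved with them: the sum of 7 such genes was 3293 to 21801 in p3 on days 5 and 6, above all pMN libraries (1139 to 3133) and p0-1 libraries (474 to 2891) and overlapping p2 (1080.0 to 3733), with Foxa2 and Shh above 0 in 11 of 11 p3 libraries and Noto at 0 in all of them. Their part in the level of Nog was not tested.

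Chrd (chr16:20733127-20742384, plus strand, with exons that overlap those of Thpo, so that reads of the 2 genes may be mixed where strand was not used) was at 190, 105 and 143 in the 3 NMP libraries. On day 4 it lay between 0 and 154, and 14 of 16 libraries were below the lowest NMP library. The change of −4.07 (SE 2.07, adjusted p = 0.303) did not pass the test. Chrd then spread over 0 to 288 on day 5 and 0 to 1288 on day 6. The highest value came from p2 cells at 100 nM, replicate 3, where replicates 1 and 2 of the group were at 1.19 and 0, and the same library held the highest Msx2 of the series. That library detected 10541 genes, against a median of 12674 on day 6.

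Of the ligands, Bmp4 is the BMP of ectoderm, roof plate and posterior mesoderm, and Bmp7 is more widely made. Bmp4 (chr14:46383525-46390669, minus strand, with exons that overlap those of Gm15217) was at 122, 163 and 133 normalised reads on day 3. On day 4 it was at 0 in 11 of 16 libraries and at most 58.5, so that the days did not overlap. The change was −5.48 (SE 1.73, adjusted p = 0.0434), short of the threshold of 0.01. Fst, Bmp4 and Bambi were the 3 members whose day 4 libraries all lay below their day 3 libraries, as did those of 4.37% of all genes tested. Only 3 NMP libraries set that limit, and limma called only Fst among these members.

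The promoters of Bmp4 and Chrd, a ligand and an antagonist that are both present in every NMP library, are shown because they can be read beside these values. RefSeq promoter sequences (GRCm38.p6, the build also called mm10) matched 5 of the 10 members (Chrd, Bmp4, Smad6, Msx1 and Msx2). Each run below is the 250 bases before the start site on the gene's own strand, with capitals at any match to the 5 motifs searched.
Bmp4, chr14:46390670-46390919, minus strand: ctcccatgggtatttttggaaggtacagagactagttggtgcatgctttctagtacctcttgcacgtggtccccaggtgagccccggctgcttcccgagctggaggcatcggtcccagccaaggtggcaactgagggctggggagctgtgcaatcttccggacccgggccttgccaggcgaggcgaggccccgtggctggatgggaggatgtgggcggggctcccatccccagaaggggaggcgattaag
Chrd, chr16:20732877-20733126, plus strand: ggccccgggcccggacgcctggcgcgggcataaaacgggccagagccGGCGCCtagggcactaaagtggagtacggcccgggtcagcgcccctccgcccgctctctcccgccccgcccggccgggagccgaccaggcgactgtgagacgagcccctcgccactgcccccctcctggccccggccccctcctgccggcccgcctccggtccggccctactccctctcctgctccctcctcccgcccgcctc

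The motifs, read on both strands, were the palindromic GC-rich SMAD box GGCGCC, the SMAD4 CAGA box CAGAC, the TCF/LEF core CTTTGA, the GLI site GACCACCCA and the retinoic acid receptor half-site AGGTCA, none of which contains another. In all 32851 promoter windows of the same length, 9.59% held GGCGCC, 42.2% CAGAC, 13.8% CTTTGA, 0.225% GACCACCCA and 14.0% AGGTCA. Among the 5 matched members there was 1 match, a GGCGCC that starts at base 48 of the Chrd window. The windows of Bmp4, Smad6, Msx1 and Msx2 held no match to any of the 5. The G and C content was 63.2% for Bmp4 and 78% for Chrd.

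After day 4 Bmp4 remained rare. It was above 0 in 10 of 24 libraries on day 5, with the highest at 285 in p0-1 cells without SAG, and in 4 of 22 on day 6. All 6 p2 libraries of day 6 were at 0. Across days 5 and 6 its mean was 39.6 ± 81.6 in p0-1, 22.6 ± 48.2 in pMN, 17.7 ± 30.5 in p3 and 14.3 ± 34.0 in p2, so that no neighbours in this order differed beyond their spread.

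Bmp7 (chr2:172868012-172940321, minus strand) was the ligand with the most reads. The NMP libraries held 281, 243 and 1059, and on day 4 the values ran from 13.1 to 1566 with a median of 291. The 4 p3 libraries of day 4 gave 1566 at 100 nM and 743, 253 and 1066 at 500 nM, and 3 of them exceeded every other library of that day, whose highest was 431. The value of 1566 came from the library with the fewest genes detected in the series, 9718. On day 6 the p3 values were 229, 603 and 1329 at 100 nM and 334 and 2587 at 500 nM, against 0 to 577 elsewhere, so that 3 of 5 lay above the rest.

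Over days 5 and 6 Bmp7 averaged 708 ± 717 in p3, 342 ± 311 in p0-1, 229 ± 211 in p2 and 172 ± 119 in pMN, and the spreads of all 4 overlapped. The p3 level differed from p2 by 1.70 on the log2 scale (SE 0.78, adjusted p = 0.240), from pMN by 1.43 (SE 0.81, adjusted p = 0.520) and from p0-1 by 0.68 (SE 0.78, adjusted p = 0.742). Single libraries moved these values. p3 at 100 nM on day 5, replicate 2, detected 10571 genes, the fewest of that day, and 1 of the 10 members. It held no Bmp7 read, while the other 5 p3 libraries of day 5 lay between 310 and 781. Without it the differences from p0-1 and pMN were 1.43 and 2.19. The difference from p0-1 was 0.23 without replicate 3 of that group, 0.37 without its replicate 1, 0.31 and 1.05 without p3 at 500 nM on day 6, replicates 3 and 1, and 0.41 without p0-1 at 0 nM on day 6, replicate 2. The difference from p2 was 1.03 without p2 at 100 nM on day 6, replicate 1. None of these was called.

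**Figure D3:**
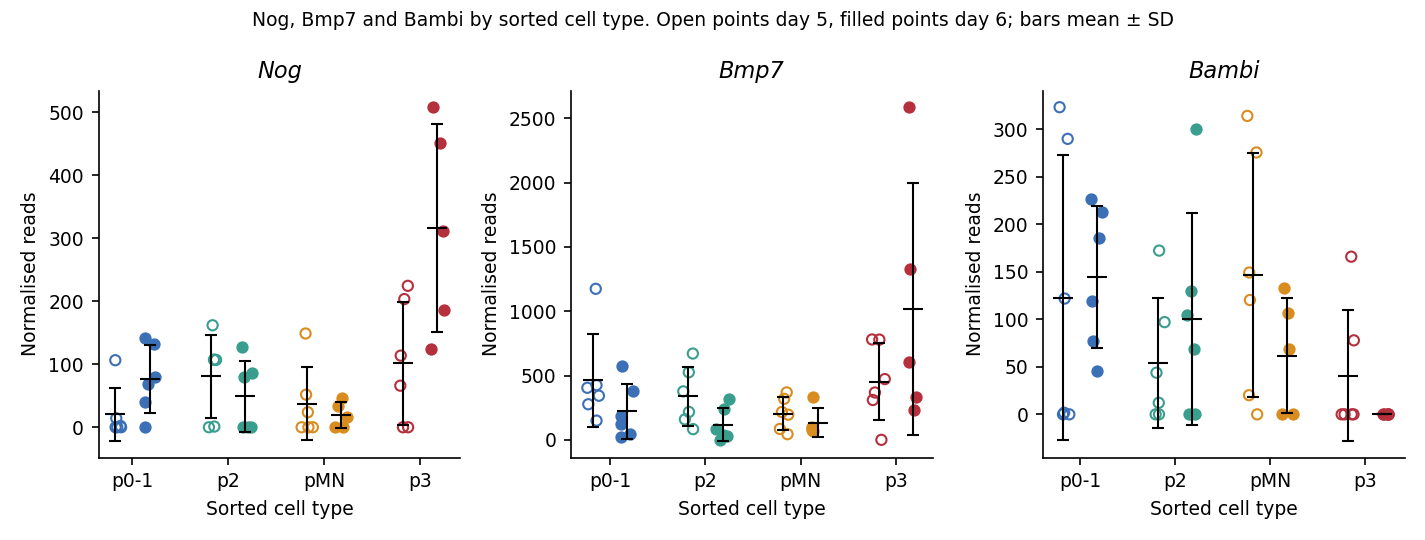
Normalised reads of Nog, Bmp7 and Bambi in the 4 sorted cell types on day 5 (open points) and day 6 (filled points), 1 point per library, with the mean and SD as bars. On day 6 p3 libraries reach 508 for Nog and 2587 for Bmp7, and all 5 are at 0 for Bambi.

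Bambi encodes a transmembrane protein that resembles a BMP type I receptor but lacks the kinase, and blocks signalling. The gene (chr18:3507957-3516404, plus strand) was at 396.0, 572 and 463 in the NMP libraries and between 0 and 265 on day 4. The days did not overlap, and the fitted change was −4.12 (SE 1.84, adjusted p = 0.211), which did not pass the test. 5 of the 16 day 4 libraries were at 0.

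In the sorted cells Bambi was lowest in p3. Of the 15 p3 libraries, 12 were at 0, and the other 3 held 146 on day 4 and 166 and 77.9 on day 5. On day 6 all 5 p3 libraries were at 0, whereas the 6 p0-1 libraries lay between 45.3 and 227. On that day the p0-1 mean of 145 ± 75.1 was at least 54.2-fold higher than p3 when 0 is read as 3 reads per library, and the bounds were 37.7-fold for p2 and 23.2-fold for pMN, both of which included libraries at 0. The p2 bound is 22.8-fold without its highest library, 100 nM replicate 1, at 301. These bounds hold for the means and not for each library, and the cell types were not tested on day 6 alone.

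Over days 5 and 6 the mean was 22.2 ± 53.1 in p3 (n = 11), 77.5 ± 91.5 in p2 (n = 12), 108 ± 108 in pMN (n = 11) and 134 ± 114 in p0-1 (n = 12). The p3 level differed from p0-1 by −4.42 on the log2 scale (SE 1.21, adjusted p = 0.0238), from pMN by −3.73 (SE 1.25, adjusted p = 0.152) and from p2 by −3.14 (SE 1.21, adjusted p = 0.141), none of which reached 0.01. The comparison with p0-1 passed when p3 at 100 nM on day 5, replicate 1, was left out (−5.04, adjusted p = 0.00723) or p0-1 at 10 nM on day 5, replicate 2 (−5.06, adjusted p = 0.00756). The p3 libraries serve in all 3 comparisons. Genes detected per library had medians of 12474 in p3 and 12632 in p0-1 over days 5 and 6. On day 6 alone the medians were 12543 in p3 (10338 to 14088) and 13298 in p0-1 (11829 to 13833). The part of detection in the values of Bambi was not tested.

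Smad6 and Smad7 are inhibitory SMADs: Smad6 acts mainly on BMP receptors, and Smad7 also on TGF-beta receptors. Smad6 (chr9:63953076-64022059, minus strand) was at 25.6, 18.0 and 69.3 on day 3 and was above 0 in 16 of 16 libraries on day 4, between 17.3 and 217. On day 5 it lay between 0 and 440 with a median of 39.3, against a median of 99.1 the day before. The step from day 4 to day 5 was −1.77 (SE 0.78, adjusted p = 0.142) and the days overlapped. On day 6 the median was 121. Over days 5 and 6 the means of the 4 cell types lay between 80.2 and 132 normalised reads, closer together than the spread within each type.

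The medians of Smad7 (chr18:75367365-75395934, plus strand) moved the other way up to day 5 and, like that of Smad6, rose from day 5 to day 6. Smad7 was at 12.4, 21.4 and 50.3 on day 3, had a median of 1.71 on day 4 with 7 of 16 libraries at 0, and then medians of 64.3 on day 5 and 84.3 on day 6. The increase from day 4 to day 5 was 2.45 (SE 0.86, adjusted p = 0.0506) and that from day 5 to day 6 was 1.36 (SE 0.75, adjusted p = 0.372). Neither passed the test in limma, and the libraries of neighbouring days overlapped. DESeq2 called the first (3.76, adjusted p = 0.000202), and edgeR called neither. Its highest libraries on day 6 were p3 at 100 nM replicate 3, at 351, and p2 at 10 nM replicate 1, at 318.

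Msx1 and Msx2 encode homeobox repressors induced by BMPs in the dorsal neural tube and neural crest. Msx1 (chr5:37820491-37824585, minus strand, with exons that overlap those of Msx1os) did not exceed 64.0 in any library. That library was p0-1 without SAG on day 6, replicate 1. Msx2 (chr13:53466881-53472780, minus strand) was at 0.83, 19.1 and 105 on day 3 and at 0 in 13 of 16 libraries on day 4, with a highest value of 15.5. The change was −3.59 (SE 1.32, adjusted p = 0.0998), short of the threshold, and −2.21 without NMP replicate 3.

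On days 5 and 6 Msx2 was above 0 in 5 of 12 p0-1 libraries, at up to 119, and at 0 or 1 read in the 22 p3 and pMN libraries. In p2 cells 9 of 12 libraries were at 0, and 1 library, 100 nM on day 6, replicate 3, held 777. It was also the library with the highest Chrd, and it detected 10541 genes. Dorsal neural tube and roof plate genes were low or absent in most libraries of these days, with a median sum of 8 genes of 16.2 on day 5 and 0.998 on day 6. They were highest in p0-1, with a median of 184 over both days, and Pax3, a dorsal progenitor gene, was at 133 to 762 in the 6 p0-1 libraries without SAG and at 0 in the 6 with 10 nM. Neural crest markers summed to at most 319 on days 4 to 6, with Sox10 at 0 on days 5 and 6.

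The plot of changes sets the steps side by side. From day 3 to day 4 the median change of the 9 tested members was −3.59 and that of all 13964 genes −0.40. 1 member was called and 4 of 9 had an unadjusted p under 0.05, beside 2426 of the 13964 genes. From day 4 to day 5, 1 member was called and 3 of 9 had an unadjusted p under 0.05, beside 3422 of the 13964 genes. The medians were 0.05 and 0.01. From day 5 to day 6 they were 0.38 and 0.00, and limma called 0 of 9 members and had 0 at an unadjusted p under 0.05, where 0.852% of all genes were called. edgeR also called 0 there and DESeq2 called 2, Bambi and Bmp4.

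**Figure D4:**
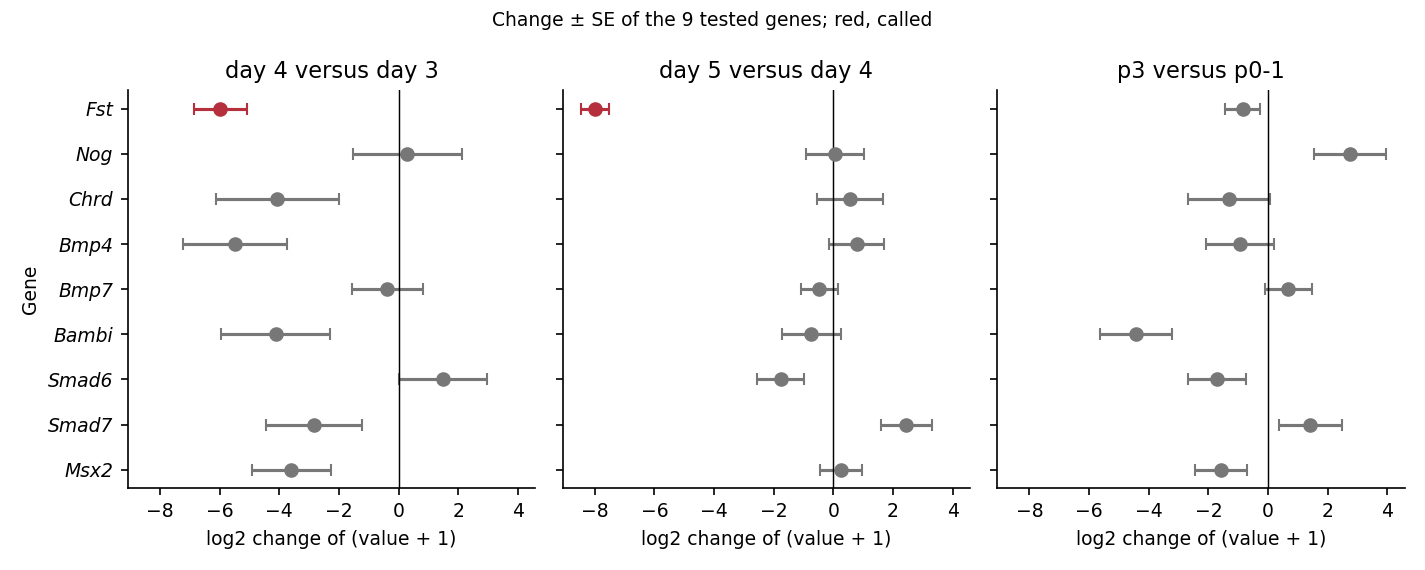
Fitted change on the log2(value + 1) scale, with its SE, of the 9 tested genes for day 4 versus day 3, day 5 versus day 4 and p3 versus p0-1 on days 5 and 6; red marks a call. Fst stands at −5.97 and −7.98 in the first 2 panels and is the only gene called, while Bambi stands at −4.42 in the third.

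Among the cell types on days 5 and 6, limma and edgeR called 0 of 9 members in each of the 6 pairs. The share of all genes called by limma was 0.695% for p3 versus pMN, 1.27% for p3 versus p2, 1.43% for p3 versus p0-1, 0.107% for pMN versus p2, 0.96% for pMN versus p0-1 and 0.322% for p2 versus p0-1. An unadjusted p under 0.05 was reached by 2 members in each comparison with p3 and by 0 in the other 3. The number of all genes under that limit is not given here or below, so these counts have no background beside them. DESeq2 called 3, 2, 2, 1, 1 and 1 members in the same order, drawn from Bambi, Bmp4, Bmp7 and Nog. For Bambi, Bmp4 and Nog, each of which had some group with every library at 0, DESeq2 gave very large log2 changes in these pairs, such as 13.04 for Nog in p3 versus pMN. Its calls of Bmp7, which had no such group, were 2.17 for p3 versus pMN (adjusted p = 0.00297) and 1.92 for p3 versus p2 (adjusted p = 0.00671).

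The SAG dose was varied within each cell type, and limma and edgeR called 0 of 9 members in all 4 comparisons of days 5 and 6. The percentage of all genes called was 0.0143% in p0-1, 0.0358% in p2, 0% in pMN and 0.0286% in p3. An unadjusted p under 0.05 was reached by 1 member in each of p0-1, p2 and p3 and by 0 in pMN, and DESeq2 called 0, 0, 0 and 1. The p0-1 member was Smad7, at 44.4 to 137 in the 6 libraries without SAG and at 5.44, 0, 0, 80.4, 0 and 37.6 with 10 nM (−4.12, SE 1.46, adjusted p = 0.765). Pax3 moved with it and was one of the genes called (−8.14, adjusted p = 3.02e-10), and its part in the values of Smad7 was not tested. The p2 member was Bambi, above 0 in 6 of 6 libraries at 10 nM and in 2 of 6 at 100 nM (−3.61, SE 1.66, adjusted p = 0.563). In p3 it was Bmp4, at 0 in all 6 libraries with 100 nM and at 57.8, 0, 64.4, 72.4 and 0 with 500 nM (3.53, SE 1.66, adjusted p = 0.394). That difference was 1.98 without the 500 nM library of day 6, replicate 1.

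On day 4, 1 day after SAG was added, ventral libraries (p3 and pMN, n = 8) were compared with dorsal ones (p2 and p0-1, n = 8). Bambi was above 0 in 8 of 8 dorsal libraries, at 36.3 to 265, and in 3 of 8 ventral ones, at up to 175 (−4.66, SE 1.56, adjusted p = 0.0664). Bmp4 was above 0 in 4 of 8 dorsal libraries, at up to 58.5, and 1 of 8 ventral libraries held a single read of it (−3.06, SE 1.47, adjusted p = 0.255). limma and edgeR called 0 of 9 members and DESeq2 called these 2, while 2 members had an unadjusted p under 0.05. Of all genes, 2.91% were called, 393 of 407 of them lower in ventral cells. The ventral libraries detected fewer genes, with a median of 12447 against 13896, and with the number of genes detected in the fit 191 genes were called. The part of that in the values of Bambi and Bmp4 was not tested. The difference between ventral and dorsal cells was also compared between day 6 and day 4. Of all genes 1.3% were called, limma and edgeR called 0 of 9 members, 1 had an unadjusted p under 0.05, and DESeq2 called 1.

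The rest of the pathway was described with 62 further genes in 5 lists, of which 42 were tested. Across the 15 comparisons 16 of 630 tests (2.54%) were called, beside 1.18% of the tests of all genes. Several receptor and SMAD genes were present throughout: Bmpr1a lay between 655 and 4180 normalised reads in all 65 libraries, Smad4 between 240.0 and 2093, and Smad5 between 204 and 1743. Smad9, the third BMP-responsive SMAD, was at 0 in 22 of 22 libraries on day 6, as was the receptor gene Acvrl1. No gene of the receptor list or of the SMAD list was called.

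From day 3 to day 4, 0 of the 42 genes were called higher and 2 lower, where 3.49% of all genes were called. Gdf3, a TGF-beta family ligand of pluripotent cells, went from 579, 676 and 1542 to between 0 and 517 (−6.11, SE 1.56, adjusted p = 0.00789). Kcp, which encodes a chordin-like secreted modulator, went from 286 to 378 on day 3 to between 0 and 125 (−6.30, SE 1.57, adjusted p = 0.00624). Both sets of libraries did not overlap between the days. Leaving out NMP replicate 1 raised the adjusted p to 0.0783 for Gdf3 and 0.0465 for Kcp, and single other libraries ended these calls in 8 and 4 further cases. The Gdf3 call was also lost in 5 of 9 other settings, DESeq2 (adjusted p = 0.307) and edgeR (0.0760) among them, and the Kcp call in 3 of 9, with adjusted p up to 0.0922.

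From day 4 to day 5, 1 of 42 rose and 2 fell, where 4.3% of all genes were called. Hey1, a Notch and BMP target, rose from a median of 0.913 to 181 (4.09, SE 0.81, adjusted p = 0.000264). Id2, which encodes an inhibitor of differentiation and DNA binding, fell from a median of 889 to 448 (−1.29, SE 0.35, adjusted p = 0.00832), and Bmp3, whose product antagonises other BMPs, fell from above 0 in 10 of 16 libraries to above 0 in 2 of 24 (−2.51, SE 0.67, adjusted p = 0.00764). The calls of Id2 and Bmp3 were marginal: leaving out any 1 of 20 libraries for Id2 or 11 for Bmp3, of 40, ended them, with adjusted p up to 0.0171 (pMN at 100 nM on day 4, replicate 2) and 0.0274 (p2 at 10 nM on day 4, replicate 3). Each was also lost in 5 other settings, with adjusted p up to 0.0301 for Id2 and, for Bmp3, of 0.391 in DESeq2 and 1.0 in edgeR. From day 5 to day 6, 2 rose and 0 fell, where 0.852% of all genes were called: Id4 from a median of 233 to 1099 (2.61, SE 0.54, adjusted p = 0.00156) and Bmp1, a chordin-cleaving protease, from 830.5 to 1572 (1.04, SE 0.18, adjusted p = 0.000127). Bmp1 sat at the 2-fold limit, and its change was 0.96 to 0.998, just under that limit, when any 1 of 5 libraries was left out.

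Among the cell types Id3, a BMP-induced inhibitor of basic helix-loop-helix factors, and Sostdc1, a secreted BMP antagonist, carried most calls. Id3 lay between 1585 and 5266 in the 11 p3 libraries of days 5 and 6 (median 3431) and between 1888 and 5280.4 in the 12 p0-1 libraries (median 2758). It lay between 752 and 1948 in the 11 pMN libraries (median 1441) and between 109 and 2312 in the 12 p2 libraries (median 1310). The dorsal and the ventral end of the series thus both stood above the middle: p3 exceeded pMN by 1.27 on the log2 scale (SE 0.23, adjusted p = 0.000562) and p2 by 1.59 (SE 0.23, adjusted p = 3.11e-06), while pMN lay below p0-1 by −1.17 (SE 0.23, adjusted p = 0.000727) and p2 by −1.49 (SE 0.22, adjusted p = 1.49e-05). p3 and p0-1 were not called different. These 4 comparisons reuse the same libraries. Leaving out any library ended none of them, and the last lost its call only when the compared libraries were fitted alone (adjusted p = 0.0149).

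Sostdc1 was above 0 in 9 of 12 p0-1 libraries, at up to 669.97 and with a median of 125. All 6 p0-1 libraries without SAG and 3 of the 6 with 10 nM were above 0, and Pax3 was above 0 in the first 6 and at 0 in the others, whose part in these values was not tested. Sostdc1 was above 0 in 3 of 12 p2 libraries, 2 of 11 pMN libraries and 1 of 11 p3 libraries, at no more than 74.1. The differences from p0-1 were −4.99 for p3 (SE 0.86, adjusted p = 0.000108), −4.77 for pMN (SE 0.86, adjusted p = 0.000277) and −4.08 for p2 (SE 0.84, adjusted p = 0.005). All 3 lost their calls in edgeR and when the compared libraries were fitted alone, with adjusted p of 0.0187 to 0.182, and the one for p2 also when any 1 of 10 libraries was left out (up to 0.0209, without p2 at 10 nM on day 5, replicate 1). Hey1 was higher in p3, at 202 to 1333, than in p0-1, at 0 to 252 (5.09, SE 1.01, adjusted p = 0.00082), and this too lost its call in those 2 fits. On day 4 Bmp6 was above 0 in 8 of 8 dorsal and 1 of 8 ventral libraries (−4.97, SE 1.19, adjusted p = 0.00514). That call was lost in 3 other fits, including the one with the number of genes detected (adjusted p of 0.023 to 0.169), and without any 1 of 6 libraries (up to 0.0997, without p3 at 100 nM, replicate 3).

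**Figure D5:**
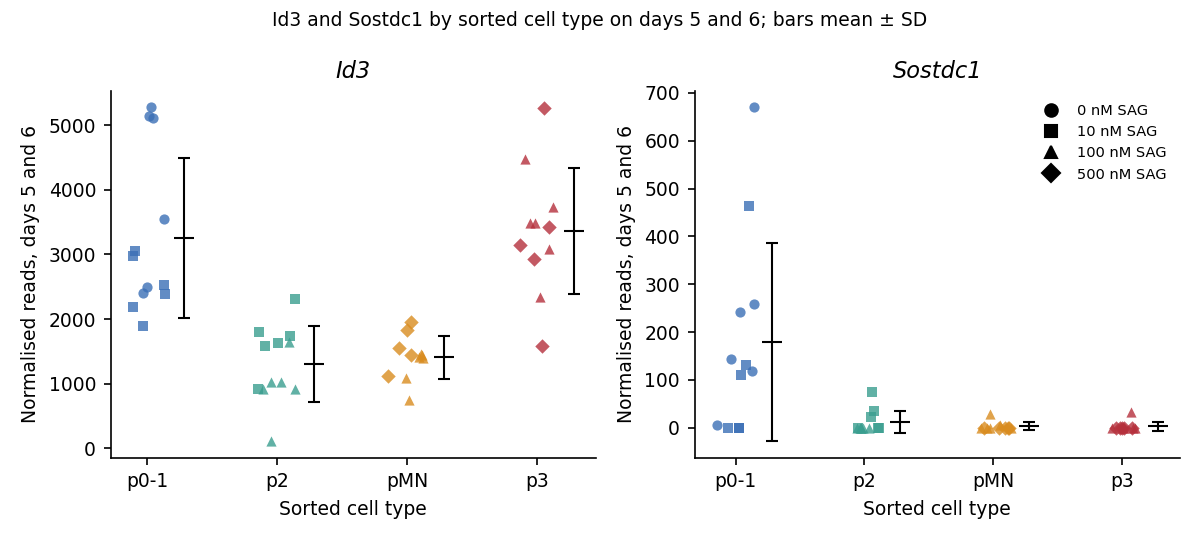
Normalised reads of Id3 and Sostdc1 in the 4 sorted cell types on days 5 and 6, 1 point per library with the marker shape giving the SAG dose, and the mean and SD as bars. Id3 medians are 3431 in p3 and 2758 in p0-1 against 1441 in pMN and 1310 in p2, and Sostdc1 exceeds 75 only in p0-1.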

How the data were processed

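RNA from fixed, sorted cells was amplified with SMART-Seq HT. Per the labels and methods, the authors ran nf-core rnaseq 1.4.2: alignment to mm10 with spike-ins, featureCounts on refGene ignoring duplicates, and removal of low-quality libraries. Use of strand is not given in the sources used here. The deposited signal values are reads divided by 1 size factor per library. All 834400 values above 0 were whole reads within 0.001 read, so reads were recovered. The annotation deposited by the authors gave positions and exon lengths. log2(value + 1) was fitted with limma 3.58.1 in R 4.3.3 (trend, 1 mean per group, 65 libraries, 40 residual degrees of freedom, genes with a mean of at least 10), and a call needed a Benjamini-Hochberg adjusted p under 0.01 and over 2-fold. Scripts were tested on simulated data. Alternatives were another pseudocount and filter, other scalings, edgeR 4.0.16, DESeq2 1.42.0, fewer libraries, a replicate block and a covariate. Fold bounds read 0 as 3 reads per library, for counting error only. Members and lists were chosen with earlier results of these data known. Named genes were the 10 members, up to 3 called pathway genes per direction and comparison, marker genes that moved with a result and, for members reaching a mean of 100 in a group, the 3 genes most like each. No 2 libraries were identical. Python 3.11.15, pandas 2.3.3 and matplotlib 3.10.9 drew the plots.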

Additional observations from a re-analysis of the deposited data

How the results depend on the processing

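The number of members called in each comparison was compared across 10 other settings and with each library left out. Other than with DESeq2, every setting gave the same count in all 15 comparisons. The setting with a mean of at least 100 kept only Fst, Bmp7 and Bambi among the members, so it could not call any other member. DESeq2 on the recovered reads called 3 members for day 5 versus day 4 (Bambi, Fst and Smad7), 2 for day 6 versus day 5, 3 for p3 versus pMN, 2 for p3 versus p2 and for p3 versus p0-1, 1 for pMN versus p2, for pMN versus p0-1 and for p2 versus p0-1, 1 for p3 at 500 versus 100 nM, 2 for ventral versus dorsal on day 4 and 1 for its change to day 6. For day 4 versus day 3 it called 1, which was Bambi (−8.15, adjusted p = 0.000524) in place of Fst. Its day 5 versus day 4 value for Bambi, 5.38, has the opposite sign to limma's −0.73. With 1 library left out, counts ranged from 0 to 1 for p3 versus p0-1 and did not change elsewhere. The Fst changes ranged over −5.97 to −5.52 and −10.8 to −4.82 across the settings, and over −6.32 to −5.62 and −8.14 to −7.77 with 1 library left out. Of 1380 alternative values for 40 selected changes of named genes, 97 lost a call and 13 gained one, and none reversed. The day 5 versus day 4 change of Bambi, which did reverse in DESeq2, is not among those 40.

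The submitters call replicates independent differentiations but do not say that a number marks 1 differentiation, and the numbers were not taken to pair the libraries: the median correlation of same-numbered deviations within a day was 0.033 over 186 pairs, 3 of them over 0.1, against −0.019 for other numbers. However, 54 of 63 libraries correlated best with their own number, so same-numbered libraries of a day shared a part, although the correlations were small. For its accessibility libraries the paper describes sorting several cell types from each condition and comparing those of 1 dish. Its methods give the same collection for the RNA samples, which it calls paired. Libraries of 1 dose and number may therefore be paired, whereas the main fit treats all libraries as independent. The replicate block used the number alone, over all days and doses, and not the dish. With a replicate block Fst stood at −5.96 (adjusted p = 4.54e-06) and −7.99 (adjusted p = 1.29e-16), the count of members called was 1, 1 and otherwise 0, and Gdf3, Bmp3 and Id2 lost their calls (adjusted p = 0.0101, 0.0202 and 0.0103). Groups of 1 to 3 libraries and many values at 0 limit what can be called: the median SE over all genes was 0.43 to 1.00 on the log2 scale, and the cause of the difference between DESeq2 and limma was not tested.

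The number of all genes called, on which the background shares rest, moved by over 1.5 times in some settings, and DESeq2 gave the larger counts. In the order of the 3 day steps, the 6 cell type pairs from p3 versus pMN to p2 versus p0-1, the SAG doses in p0-1, p2, pMN and p3, and the 2 ventral and dorsal comparisons, it called 1067, 2321, 899, 782, 986, 887, 587, 749, 632, 424, 645, 442, 665, 2276 and 1567, against 488, 601, 119, 97, 178, 199, 15, 134, 45, 2, 5, 0, 4, 407 and 182 in limma. For day 4 versus day 3, no filter gave 1346, a mean of at least 100 gave 292 and genes detected as a covariate 318. A mean of at least 100 gave 78 for day 6 versus day 5, 59 for p3 versus pMN and 9 for pMN versus p2. edgeR gave 51 for p3 versus pMN, 130 for p3 versus p0-1, 5 for pMN versus p2 and 23 for p2 versus p0-1. The compared libraries alone gave 47, 77 and 109 for p3 versus pMN, p2 and p0-1 and 24 for p2 versus p0-1. A pseudocount of 10 gave 29 and the replicate block 26 for pMN versus p2. For ventral versus dorsal on day 4 and its change to day 6, a pseudocount of 10 gave 163 and 56 and the covariate 191 and 81. The SAG comparisons held 0 to 11 calls in all settings but DESeq2.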

Other observations

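The genes whose group means ran most like those of each member were listed by Pearson's r of log2 group means over the 25 groups, for the 9 members with a mean of at least 100 normalised reads in some group. This is a description, since all genes share the same libraries. For Fst they were Trh (r = 0.921), Fth1 (0.919) and Rpl18 (0.919). Nog ran closest to Map2 (r = 0.771), Ttyh1 (0.740) and 4930556M19Rik (0.736). The group means of Chrd were most like those of Rap1gap (r = 0.830), Adam1a (0.747) and Tsx (0.743). For Bmp4 they were Ydjc (r = 0.791), Pcdh1 (0.769) and Bmp6 (0.764). Bmp7 ran closest to Kif20a (r = 0.810), Cds2 (0.778) and Grhpr (0.732). The group means of Smad6 were most like those of B3galnt1 (r = 0.640), Psmf1 (0.631) and Ppp6c (0.620). For Smad7 they were Hbp1 (r = 0.786), Snord8 (0.780) and Tcf4 (0.766). Bambi ran closest to Zfp418 (r = 0.783), Mgat4a (0.776) and Stx7 (0.760). The group means of Msx2 were most like those of 4930548H24Rik (r = 0.773), Npy1r (0.770) and Ptchd1 (0.715).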
